A study of Mus musculus with 20 samples.

Results

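The genes described here are the 42 collagen chain genes of the preoptic area (POA) that could be followed in the deposited counts of 25239 genes. They were taken by symbol, as genes named Col, a type number, the letter a and a chain number, with a mean of 10 or more counts over 20 mice. Of the 42, 6 encode fibrillar chains of types I, III and V (Col1a1, Col1a2, Col3a1, Col5a1, Col5a2 and Col5a3), 6 encode the type IV chains of basement membranes (Col4a1 to Col4a6) and 30 belong to other types. By class 11 of the 42 chains are fibrillar, and below the fibrillar chains are those of types I, III and V unless another type is named. Col10a1, with a mean of 3.6 counts, lay just outside the minimum and Col28a1, with 26.2, just inside. All 42 passed the filter on low counts in each of the 5 comparisons.

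RNA came from the POA of male mice collected at PND320, with 5 mice in each of 4 groups. At PND20 each control or dnFGFR male was given either a male cage mate (same-sex, SS) or a female one (opposite-sex, OS), and the 2 lived together for 300 days. The dnFGFR mice carried a transgene for a truncated FGF receptor 1 without its kinase domain, driven by a rat GnRH promoter, so that the receptor acts in GnRH neurons, which are a very small share of the cells sampled. OS pairs bred and raised litters, so mating, fatherhood and the partner's sex cannot be told apart in the housing comparison. The dnFGFR mice were homozygous and the controls came from the same background. The POA was cut by hand from a brain slice, so neighbouring tissue can enter a sample. No sacrifice date was common to control and dnFGFR mice, and a genotype difference therefore cannot be told apart from one between dates.

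Collagens are secreted proteins whose chains wind together into a helix and assemble outside the cell. Fibrillar chains form the fibres of connective tissue, and in the brain they are made mainly by fibroblasts of the meninges and around larger vessels. Type IV chains form sheet-like networks with laminin in the basement membranes of blood vessels and of the brain surface, where endothelial and mural cells are their main sources. Other types line fibrils (the fibril-associated chains, or FACITs), build beaded filaments (type VI), form hexagonal networks (type VIII) or span the cell membrane (types XIII, XVII, XXIII and XXV), and the last group includes Col25a1 of neurons.

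Counts on genes came to between 32353578 and 39871353 per mouse. Of 6 markers of the POA and hypothalamus, 5 had a mean of 1 CPM or more (counts scaled to library size with TMM factors), and Six6 lay under this level. The lists of fibroblast, mural, endothelial, choroid plexus, ependymal, astrocyte, oligodendrocyte, neuronal and red blood cell markers were all fully detected. The summed level of the 7 choroid plexus markers varied most, from 37.7 to 1086 CPM in control SS mice, 54.7 to 1956 in control OS mice, 39.6 to 1605 in dnFGFR SS mice and 38.6 to 2181 in dnFGFR OS mice. dnFGFR OS replicates 2 and 5 were most often the lowest mouse in the collagen chains. Replicate 2 was the lowest of the 20 mice in 9 chains and the highest in 5, and replicate 5 was the lowest in 10 chains and the highest in 3. dnFGFR OS replicate 1 was the lowest in 6 chains and the highest in 1. The median log2 deviation over the chains was -0.21 in replicate 1, the lowest of all mice, -0.20 in replicate 5 and -0.14 in replicate 2. In replicate 5 the 8 chains with a transcript GC content of 60% or more had a median deviation from the 20-mouse mean of -0.83 on the log2 scale, against 0.18 for the 9 chains under 50%.

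Levels between chains were compared as CPM per kilobase of exon. Col6a1, a chain of the beaded filaments of type VI, was the most abundant at 29.6 ± 5.98 CPM per kilobase (SD, n = 20 mice). Its lowest mouse, at 19.9, lay above the highest mouse of the second chain, Col4a2, at 10.1. Col4a2 had a mean of 9.14 ± 0.775, followed by Col9a3, a FACIT chain, at 6.57 ± 2.24, the neuronal membrane collagen Col25a1 at 6.31 ± 0.700, Col4a1 at 5.16 ± 0.428 and Col11a2 at 5.03 ± 0.992. Apart from Col6a1 and Col4a2, neighbours in the order had ranges that overlapped over the mice, and Col9a3 exceeded Col25a1 in 10 of 20 mice. Col11a2 is fibrillar by class. The fibrillar chains of types I, III and V lay lower, with Col5a1 at 1.72 ± 0.403, Col1a1 at 1.10 ± 0.230, Col1a2 at 0.909 ± 0.157, Col5a3 at 0.757 ± 0.180, Col5a2 at 0.535 ± 0.113 and Col3a1 at 0.192 ± 0.0697 CPM per kilobase. Within type IV the chains spread widely, since Col4a5 lay at 0.610 ± 0.103, Col4a6 at 0.181 ± 0.0483, Col4a3 at 0.125 ± 0.0755 and Col4a4 at 0.107 ± 0.0550. The lowest chain of all was Col6a6 at 0.103 ± 0.0395.

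**Figure D1:**
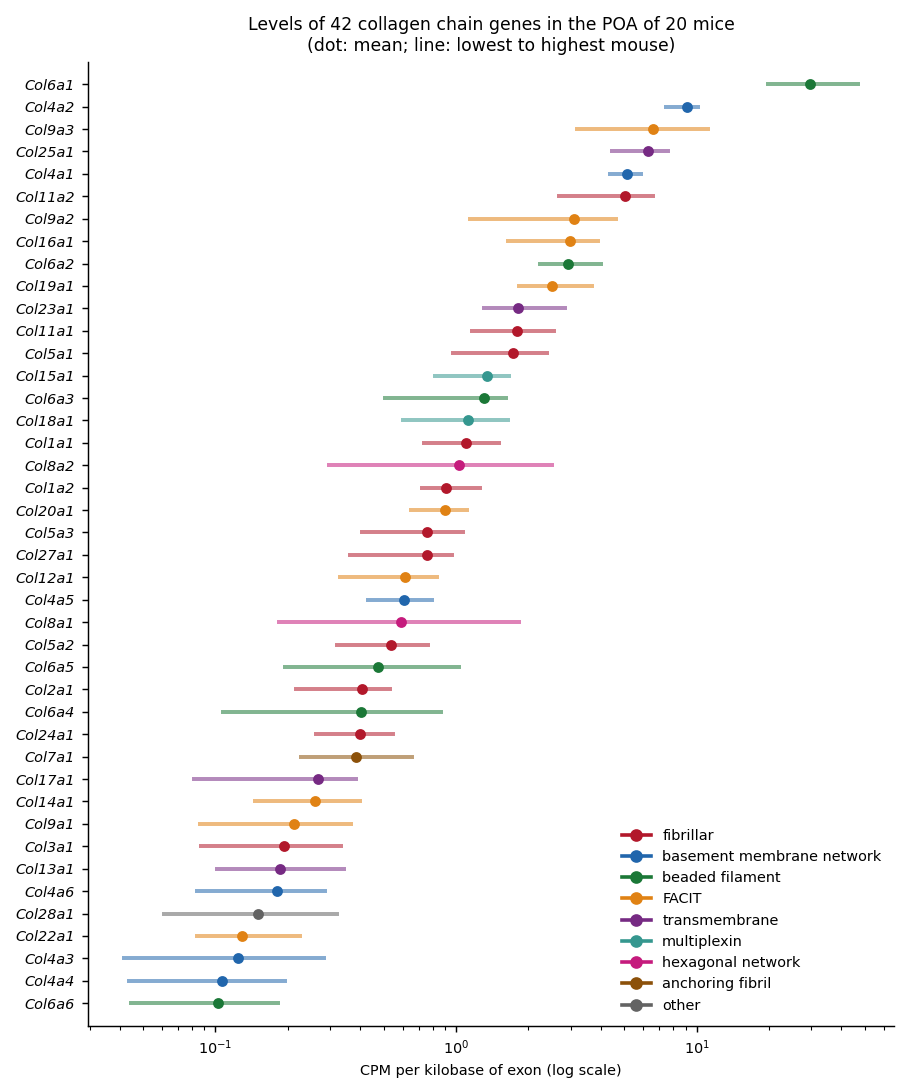
Mean level (dots) and the span from the lowest to the highest of 20 mice (lines) of each of the 42 chains, in CPM per kilobase of exon on a log axis, coloured by collagen class. Col6a1 stood above the rest at 29.6 and Col6a6 was lowest at 0.103.

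The median spread between mice was wider for the chains than for all genes, which were not matched to them for level. Mean counts of the chains ran from 26.2 to 4592, and the part of low counts in the spread was not tested. The SD of log2 CPM was pooled within the 4 groups, and its median was 0.338 for the chains and 0.183 for the 17445 genes that passed the filter over all mice. Col4a1 was the steadiest chain, with an SD of 0.101 and a highest mouse 1.34 times its lowest, and Col4a2 followed at 0.109 and 1.36 times. Col8a1 was the most variable, with an SD of 0.954 and a highest mouse 9.91 times its lowest, ahead of Col6a4 (0.903), Col8a2 (0.897) and Col4a3 (0.835). In bulk tissue, more cells of a type and more RNA per cell cannot be told apart.

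Among the fibrillar chains, Col1a1 (chr11:94936224-94953042 on GRCm38) makes the main chain of type I collagen. Over replicates 1 to 5 it was at 9.86, 6.14, 6.23, 9.94 and 8.83 CPM in control SS mice, at 6.63, 6.19, 6.54, 8.28 and 5.83 in control OS mice, at 8.06, 7.77, 7.47, 9.13 and 8.36 in dnFGFR SS mice and at 4.93, 7.01, 4.81, 6.46 and 5.96 in dnFGFR OS mice. The 5 dnFGFR OS mice all lay below the 5 dnFGFR SS mice, and the control groups overlapped. Col1a2 (chr6:4505618-4541543 on GRCm38), its partner chain, was at 11.6, 10.8, 9.70, 12 and 12.9 CPM in control SS mice, 9.55, 9.08, 9.85, 11.6 and 10.3 in control OS mice, 13.1, 9.45, 11.8, 14.7 and 10.4 in dnFGFR SS mice and 10.1, 15.7, 14.1, 8.93 and 10.2 in dnFGFR OS mice. The groups overlapped, and the highest and the lowest mouse were both dnFGFR OS mice.

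Col3a1 (chr1:45311538-45349706 on GRCm38), the single chain of type III collagen of soft connective tissue, was at 2.81, 1.76, 1.17, 2.11 and 2.98 CPM in control SS mice, 1.15, 0.965, 1.79, 1.77 and 1.99 in control OS mice, 2.49, 1.52, 1.59, 2.48 and 1.90 in dnFGFR SS mice and 1.31, 3.27, 2.45, 1.38 and 0.856 in dnFGFR OS mice. Its lowest and highest mice were dnFGFR OS replicates 5 and 2, which span the range of all groups. The type V chains sit inside type I fibrils and limit their width. Col5a1 was at 15.1, 14.2, 12.7, 10.4 and 15.8 CPM in control SS mice, 16.3, 8.29, 8.56, 15.9 and 18.2 in control OS mice, 16.6, 16.9, 20.2, 18.7 and 15.8 in dnFGFR SS mice and 10.5, 18.1, 14.9, 14.1 and 10.4 in dnFGFR OS mice. Only the pair of SS groups did not overlap for Col5a1, with the lowest dnFGFR SS mouse at 15.78 and the highest control SS mouse at 15.75 CPM.

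Col5a2 was at 6.96, 5.10, 4.42, 6.32 and 5.62 CPM in control SS mice, 3.88, 5.51, 5.55, 4.36 and 3.93 in control OS mice, 7.37, 5.87, 5.03, 3.07 and 5.43 in dnFGFR SS mice and 5.51, 5.10, 3.99, 5.62 and 3.91 in dnFGFR OS mice. Col5a3 was at 2.93, 5.43, 4.72, 7.31 and 5.27 CPM in control SS mice, 6.02, 7.15, 4.16, 4.57 and 5.66 in control OS mice, 5.46, 5.54, 7.05, 3.67 and 5.36 in dnFGFR SS mice and 4.46, 5.13, 4.90, 5.51 and 2.78 in dnFGFR OS mice. Both chains overlapped between the groups in each of the 4 comparisons.

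Col4a1 and Col4a2 make the common type IV network of vessels and together held 89.5% to 94.5% of the type IV counts of a mouse on the CPM scale. Col4a1 was at 43.9, 40.8, 38.0, 39.9 and 41.1 CPM in control SS mice, 39.6, 42.4, 36.8, 38.0 and 38.1 in control OS mice, 38.4, 40.7, 40.2, 33.9 and 42.5 in dnFGFR SS mice and 32.7, 34.0, 38.6, 38.0 and 32.9 in dnFGFR OS mice. Col4a2 was at 63.9, 66.9, 63.2, 65.3 and 62.9 CPM in control SS mice, 63.0, 64.6, 58.2, 56.6 and 61.9 in control OS mice, 58.1, 63.0, 64.9, 54.5 and 63.8 in dnFGFR SS mice and 49.3, 54.5, 62.8, 62.3 and 49.7 in dnFGFR OS mice. For both chains 3 of the 5 dnFGFR OS mice, replicates 1, 2 and 5, lay low in the range of the 20 mice. So did dnFGFR SS replicate 4, at 33.9 and 54.5 CPM, about the level of dnFGFR OS replicate 2.

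Col4a3 and Col4a4 make the network of specialised membranes such as that of the kidney glomerulus. Col4a3 was at 0.568, 0.771, 0.417, 2.18 and 0.611 CPM in control SS mice, 1.45, 2.81, 1.82, 2.53 and 0.455 in control OS mice, 0.578, 0.896, 1.62, 1.10 and 1.03 in dnFGFR SS mice and 0.904, 0.628, 2.13, 0.478 and 1.86 in dnFGFR OS mice. Col4a4 was at 0.478, 1.10, 1.22, 2.06 and 0.662 CPM in control SS mice, 2.05, 2.02, 1.14, 1.92 and 0.597 in control OS mice, 0.520, 0.815, 1.19, 0.597 and 0.528 in dnFGFR SS mice and 1.08, 0.464, 1.98, 0.843 and 1.34 in dnFGFR OS mice. The same mice tended to be high in both, among them control SS replicate 4, control OS replicates 2 and 4 and dnFGFR OS replicate 3.

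Col4a5 and Col4a6 lie side by side on the X chromosome. Col4a5 was at 3.85, 4.13, 4.39, 4.61 and 4.81 CPM in control SS mice, 3.64, 3.41, 3.96, 5.18 and 4.38 in control OS mice, 3.93, 3.53, 5.34, 3.52 and 4.62 in dnFGFR SS mice and 2.89, 3.44, 5.11, 3.99 and 3.21 in dnFGFR OS mice. Col4a6 was at 1.43, 1.24, 1.39, 0.669 and 1.86 CPM in control SS mice, 1.87, 1.5, 1.71, 1.52 and 1.34 in control OS mice, 2.28, 1.06, 1.36, 1.43 and 1.32 in dnFGFR SS mice and 1.05, 1.39, 1.71, 0.815 and 1.93 in dnFGFR OS mice. Neither chain separated the groups in any of the 4 comparisons.

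**Figure D2:**
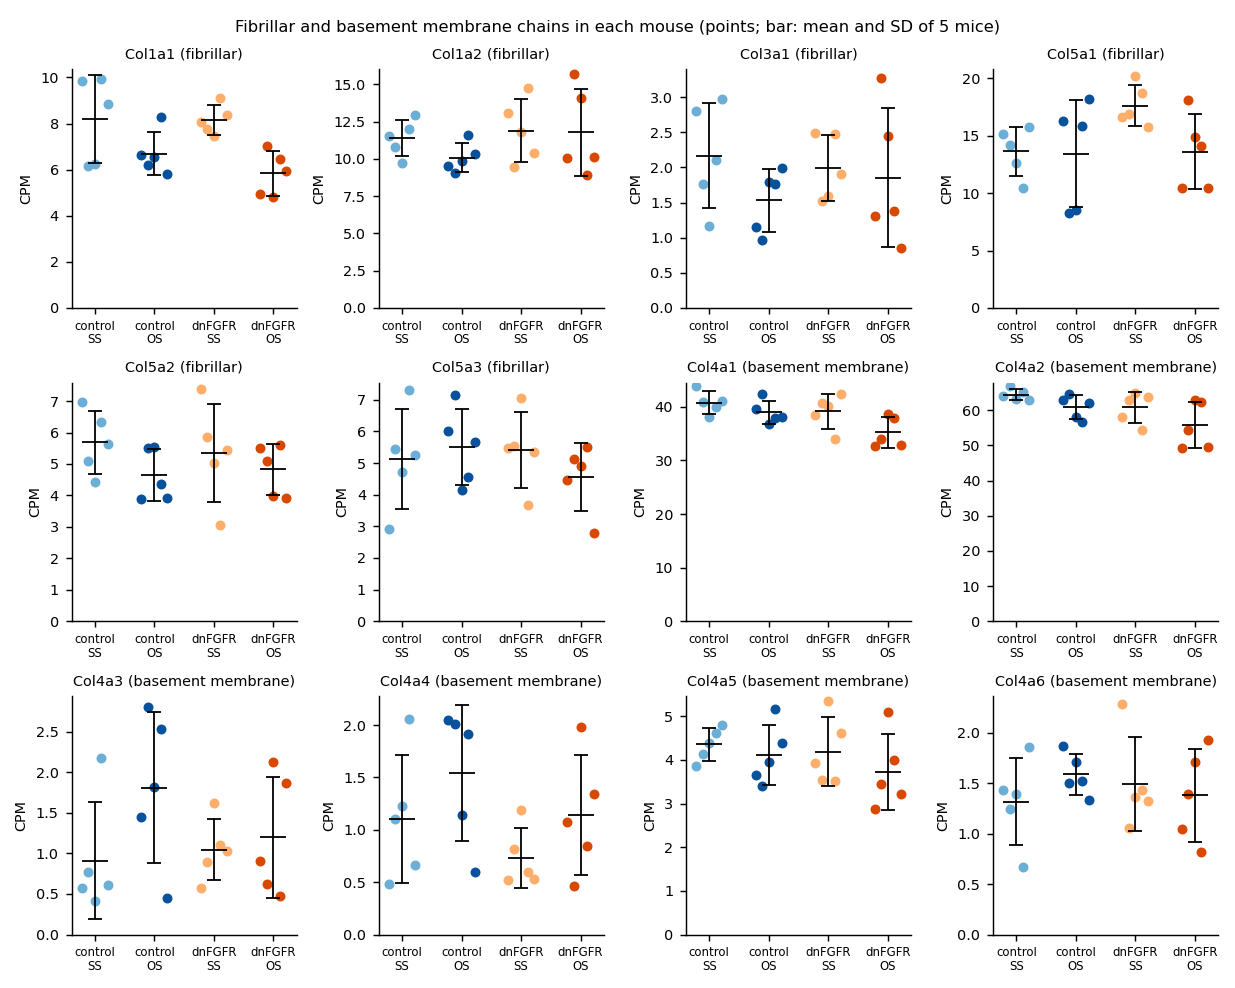
CPM of the 6 fibrillar and 6 type IV chains in each mouse (points, 5 per group, with mean and SD as bars). Col4a1 and Col4a2 kept within 1.34-fold and 1.36-fold over the 20 mice, while Col4a3 spanned 6.74-fold.

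The next question was which chains moved together from mouse to mouse. For 10 pairs, log2 CPM was correlated over the 20 mice with two-sided permutation tests, and p-values were adjusted over the pairs. Col4a1 and Col4a2 gave a Pearson's r of 0.897 (permutation p = 1e-05, the smallest that 100000 resamples can give) and a Spearman's rho of 0.847 (permutation p = 1e-05). After removal of the group means r was 0.833 (adjusted permutation p = 0.0008), it was 0.643 in the 10 control and 0.941 in the 10 dnFGFR mice, and it was 0.824 without the 2 mice farthest from the median. The ratio of Col4a1 to Col4a2 per kilobase stayed between 0.534 and 0.610.

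Col1a1 and Col1a2, which build the same protein, gave an r of 0.316 (permutation p = 0.172) and a rho of 0.379 (permutation p = 0.0992), with r at 0.804 in control and 0.154 in dnFGFR mice. The adjusted permutation p was 0.215 and r without the 2 farthest mice 0.304, and their ratio per kilobase ran from 0.646 in dnFGFR OS replicate 3 to 1.61 in control SS replicate 1. Between the classes, Col1a1 and Col4a1 gave an r of 0.386 (permutation p = 0.0934) and a rho of 0.349 (permutation p = 0.133), with an adjusted permutation p of 0.156, 0.255 for r without the 2 farthest mice, and -0.02 once the group means were removed. Col3a1 and Col4a2 gave an r of 0.110 (permutation p = 0.645) and a rho of -0.07 (permutation p = 0.757), with an adjusted permutation p of 0.717 and -0.02 for r without the 2 farthest mice. Of the 10 pairs, 2 passed an adjusted p of 0.05 after removal of group means, Col4a1 with Col4a2 and Col1a2 with the fibroblast transporter gene Slc6a13 (over all mice r = 0.696, permutation p = 0.00067, and rho = 0.636, permutation p = 0.00305, with 0.524 for r without the 2 farthest mice, and an adjusted permutation p of 0.0083 after removal of group means). Over all mice, but not after that removal, the adjusted permutation p of rho was also below 0.05 for Col1a1 with Col3a1 (rho = 0.519, permutation p = 0.0208, and r = 0.475, permutation p = 0.0351), Col1a2 with the fibroblast proteoglycan gene Dcn (rho = 0.517, permutation p = 0.0212, and r = 0.507, permutation p = 0.0223) and Col4a1 with the endothelial gene Cldn5 (rho = 0.587, permutation p = 0.00752, and r = 0.508, permutation p = 0.0228). The adjusted values were 0.0424, 0.0424 and 0.0251 for rho, 0.0702, 0.057 and 0.057 for r and 0.246, 0.1 and 0.846 after removal of group means, and r without the 2 farthest mice was 0.399, 0.569 and 0.514. The last pair, Col1a1 with Col5a2, gave an r of 0.331 (permutation p = 0.152, adjusted 0.215) and a rho of 0.400 (permutation p = 0.0815), with 0.122 for r without the 2 farthest mice.

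Over all 39 pairs of chains of 1 collagen type, a family chosen after the values had been seen, 4 passed after removal of group means and 8 by r over all mice. The 4 were Col8a1 with Col8a2 (r = 0.924, adjusted permutation p = 0.00117), Col4a1 with Col4a2, Col6a1 with Col6a2 (r = 0.852, adjusted permutation p = 0.0104) and Col4a3 with Col4a4 (r = 0.749, adjusted permutation p = 0.00884). These adjusted values are those after removal of group means. Their Spearman's rho values were 0.833, 0.847, 0.866 and 0.671, with permutation p-values of 2e-05, 1e-05, 2e-05 and 0.00161. Without the 2 farthest mice r was 0.891 for Col8a1 with Col8a2, 0.813 for Col6a1 with Col6a2 and 0.676 for Col4a3 with Col4a4. Among these 4 pairs, the type IV genes lie head to head. On GRCm38, Col4a1 (chr8:11198423-11312889, minus strand) and Col4a2 (chr8:11312805-11449287, plus strand) shared 85 bases of their RefSeq spans, and Col4a4 (chr1:82448419-82587034, minus strand) and Col4a3 (chr1:82586921-82722059, plus strand) shared 114. Whether reads were counted by strand is not given in the sources used here, so reads in the shared bases cannot be assigned. By GENCODE exons, Col4a1 and Col4a2 shared 22 bases, 0.29% and 0.33% of their exon lengths. No exon bases shared by Col4a3 and Col4a4 were found there. The part of shared reads in these correlations was not tested. The third such pair of neighbours, Col4a5 and Col4a6, lie 1274 bases apart and gave an r of 0.0036 (permutation p = 0.988) and a rho of -0.06 (permutation p = 0.796), with -0.12 for r without the 2 farthest mice. Of the 3 head-to-head pairs, 2 thus moved together from mouse to mouse.

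The genes of type VIII, in contrast, lie on different chromosomes, Col8a1 at chr16:57624256-57754737 (minus strand) and Col8a2 at chr4:126286794-126314330 (plus strand). The stretches before their starts are shown because their RNA followed each other closely. Both are from RefSeq on GRCm38.p6, read 5′ to 3′ on the strand of the gene at chr16:57754738-57754987 for Col8a1 and chr4:126286544-126286792 for Col8a2. Capitals mark GGGCGG, the GC box, on either strand, and neither TATAAA nor CCAAT occurred on either strand in these windows.
Col8a1: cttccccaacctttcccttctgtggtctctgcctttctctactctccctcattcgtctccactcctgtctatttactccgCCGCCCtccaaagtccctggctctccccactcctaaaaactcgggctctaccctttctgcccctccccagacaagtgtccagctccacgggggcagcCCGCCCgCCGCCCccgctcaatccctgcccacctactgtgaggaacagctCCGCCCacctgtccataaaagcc
Col8a2: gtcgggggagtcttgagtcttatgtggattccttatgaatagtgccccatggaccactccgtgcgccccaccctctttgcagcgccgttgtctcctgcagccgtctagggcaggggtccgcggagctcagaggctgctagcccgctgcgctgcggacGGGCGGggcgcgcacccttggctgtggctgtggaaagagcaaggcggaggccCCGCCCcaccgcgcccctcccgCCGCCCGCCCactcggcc
Each window held 4 GC boxes, and 32.7% of 32851 such windows of 250 bases in the table held at least 1. Over the 34 collagen genes with a window, 61.8% held 1 or more. TATAAA was found in 11.8% of the collagen windows and 12.4% of all, and CCAAT in 35.3% and 33.9%. A match of letters is a description only.

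Col8a1 and Col8a2, whose products form hexagonal networks in vessels and under some epithelia, were given in every mouse after their values had been seen. Col8a1 was at 2.45, 3.06, 1.45, 6.72 and 1.86 CPM in control SS mice, 8.22, 9.54, 6.57, 7.52 and 2.05 in control OS mice, 1.94, 2.47, 7.33, 1.97 and 4.46 in dnFGFR SS mice and 2.71, 1.86, 14.3, 1.77 and 4.16 in dnFGFR OS mice. Col8a2 was at 2.42, 4.49, 2.58, 7.14 and 2.39 CPM in control SS mice, 6.72, 10.3, 5.69, 8.86 and 2.16 in control OS mice, 1.94, 1.98, 7.39, 2.27 and 4.85 in dnFGFR SS mice and 3.62, 1.34, 11.3, 2.61 and 2.51 in dnFGFR OS mice. Both were highest in dnFGFR OS replicate 3, and control OS replicate 5 lay far below the other control OS mice. Ttr, the main secreted product of the choroid plexus, was at 83.5, 336, 1.84, 964 and 1.68 CPM in the same control SS mice and 1287, 1785, 612, 1763 and 13.5 in control OS mice. It was at 1.42, 11.1, 1476, 0.209 and 677 CPM in dnFGFR SS mice and 172, 0.792, 1984, 17.8 and 337 in dnFGFR OS mice. Mice high in Ttr were high in Col8a1, and 4 of the 5 control OS mice were among them.

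Each chain was therefore compared with the mean log2 CPM of the 7 choroid plexus markers and with 3 other marker lists, 168 relations chosen after the values had been seen. The ependymal, astrocyte, oligodendrocyte and neuronal lists were not set against the chains. dnFGFR SS replicate 4 and dnFGFR OS replicate 2, lowest in choroid plexus level, were also lowest in ependymal (1.05 and 1.33) and oligodendrocyte markers (9.12 and 9.19). Whether a relation is particular to the choroid plexus was not tested. The choroid plexus level ran from 0.16 to 5.41 with no gap between neighbouring mice over 0.74, and 5 chains followed it upwards and 2 downwards after removal of group means and adjustment. For the marker lists, r, rho and their permutation p are over all mice unless stated. The adjusted permutation p there belongs to r after removal of group means unless stated. Col8a1 gave an r of 0.949 (permutation p = 1e-05) and a rho of 0.937 (permutation p = 1e-05), with 0.972 in control mice, 0.929 in dnFGFR mice and 0.955 without the 2 farthest mice. Col8a2 gave an r of 0.925 and a rho of 0.917 (both permutation p = 1e-05), with 0.962 in control mice, 0.889 in dnFGFR mice and 0.926 without the 2 farthest mice. The adjusted permutation p was 0.00168 for both. Col4a3 gave an r of 0.846 (permutation p = 2e-05) and a rho of 0.761 (permutation p = 0.00018), 0.936 in control and 0.771 in dnFGFR mice and 0.910 without the 2 farthest mice (adjusted permutation p = 0.0056). Col4a4 gave an r of 0.784 (permutation p = 0.00023) and a rho of 0.746 (permutation p = 0.00038), 0.800 in control and 0.748 in dnFGFR mice and 0.743 without them (adjusted permutation p = 0.0168). Col15a1, a basement membrane multiplexin, gave an r of 0.590 (permutation p = 0.00589) and a rho of 0.561 (permutation p = 0.0121), but only 0.160 in control mice against 0.806 in dnFGFR mice, and 0.457 without the 2 farthest (adjusted permutation p = 0.0354).

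The 2 chains that went the other way were those of the most abundant collagen and its neighbour. Col6a1 gave an r of -0.74 (permutation p = 0.00012) and a rho of -0.79 (permutation p = 0.0001) with the choroid plexus level, at -0.88 in control mice, -0.67 in dnFGFR mice and -0.76 without the 2 farthest mice (adjusted permutation p = 0.0113). Col6a2 gave an r of -0.72 (permutation p = 0.00039) and a rho of -0.75 (permutation p = 0.00023), -0.81 in control and -0.61 in dnFGFR mice and -0.67 without them (adjusted permutation p = 0.0138). Col6a1 was at 128, 132, 151, 110 and 148 CPM in control SS mice, 109, 113, 103, 121 and 168 in control OS mice, 150, 136, 121, 133 and 120 in dnFGFR SS mice and 129, 205, 87.0, 106 and 118 in dnFGFR OS mice. Its highest mouse, dnFGFR OS replicate 2, had the second lowest choroid plexus level, and its lowest, dnFGFR OS replicate 3, had the highest.

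After removal of group means, few chains passed with the other lists. With the 8 meningeal and perivascular fibroblast markers only Col1a2 passed after removal of group means (over all mice r = 0.809, permutation p = 2e-05, and rho = 0.815, permutation p = 1e-05, with 0.833 for r without the 2 farthest mice, 0.715 in control and 0.881 in dnFGFR mice, adjusted permutation p = 0.0168). Col3a1 gave an r of 0.659 (permutation p = 0.00166) and a rho of 0.656 (permutation p = 0.00213) with the same list, which passed over all mice (adjusted permutation p = 0.0275) but not after removal of group means (0.173), and r was 0.727 without the 2 farthest mice. With the 7 endothelial markers none of the 42 chains passed after removal of group means. Over all mice Col15a1 passed there (r = 0.668, permutation p = 0.00117, adjusted 0.0218, and rho = 0.647, permutation p = 0.00265), with 0.615 for r without the 2 farthest mice and an adjusted permutation p of 0.243 after that removal. With the 8 mural cell markers Col5a1 passed after removal of group means (r = 0.663, adjusted permutation p = 0.0304). Over all mice its r was 0.407 (permutation p = 0.0753), its rho was 0.200 (permutation p = 0.394), and its r without the 2 farthest mice was 0.143. The value after removal of group means was not computed again without those mice. Col25a1 gave an r of -0.61 (permutation p = 0.00403) and a rho of -0.59 (permutation p = 0.00807) with the mural markers, and -0.50 without the 2 farthest (adjusted permutation p = 0.0312, and -0.41 in control and -0.76 in dnFGFR mice). Fibroblast markers summed to between 85.3 and 119.6 CPM and mural markers to between 250.1 and 333.3 CPM over the 20 mice. Both sums were narrow in range beside that of the choroid plexus. The mean log2 CPM used for the correlations ran from 2.12 to 3.13 for the fibroblast list and from 4.19 to 4.67 for the mural list. For the choroid plexus it ran from 0.16 to 5.41. Slc6a13 alone ran from 3.09 to 9.80 CPM, so a narrow sum does not show a steady share of fibroblasts.

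**Figure D3:**
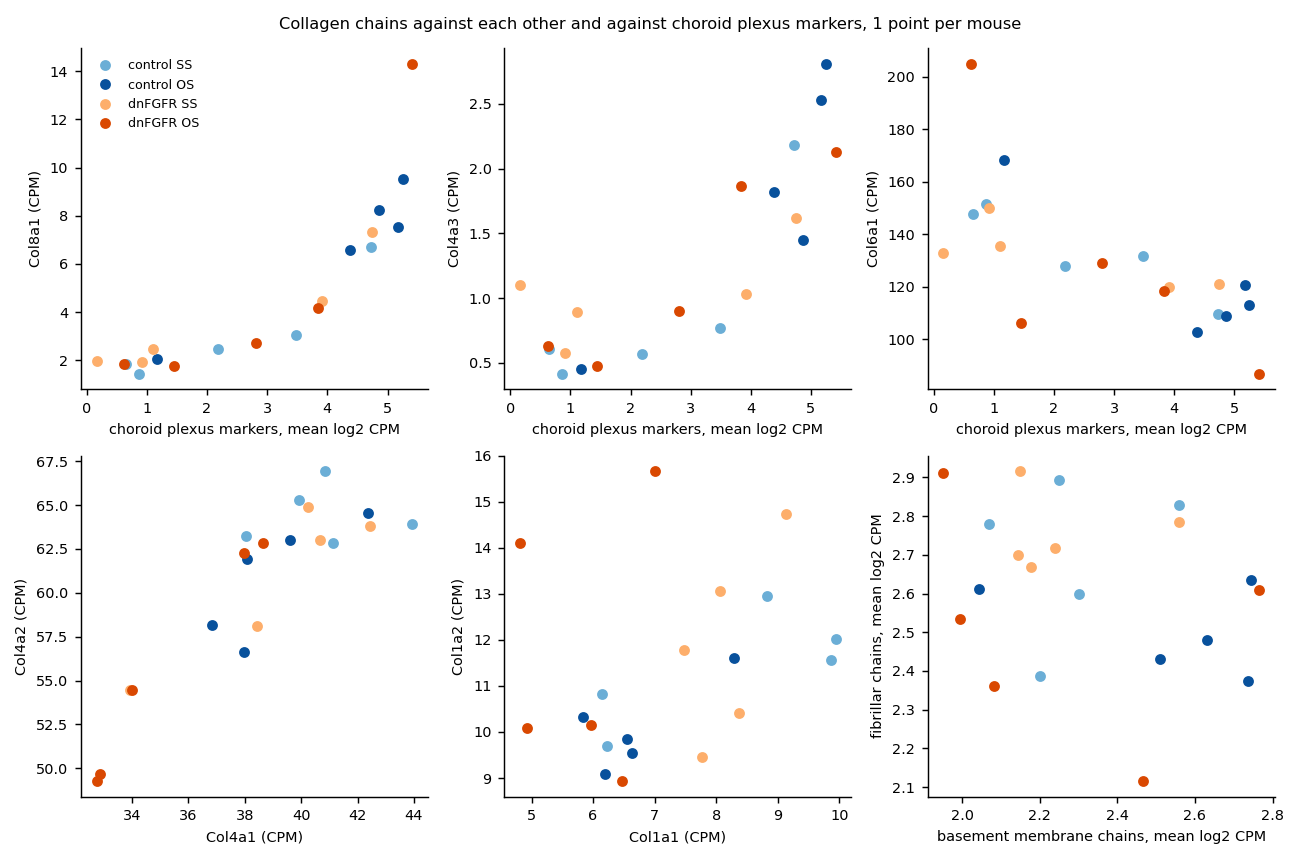
Each point is 1 mouse, coloured by group; the upper row sets Col8a1, Col4a3 and Col6a1 (CPM) against the mean log2 CPM of 7 choroid plexus markers, and the lower row sets Col4a1 against Col4a2, Col1a1 against Col1a2 and the mean log2 CPM of type IV against fibrillar chains. On log2 values Col8a1 climbed with the markers (r = 0.949), Col6a1 declined (r = -0.74), and Col1a1 and Col1a2 were scattered (r = 0.316).

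**Figure D4:**
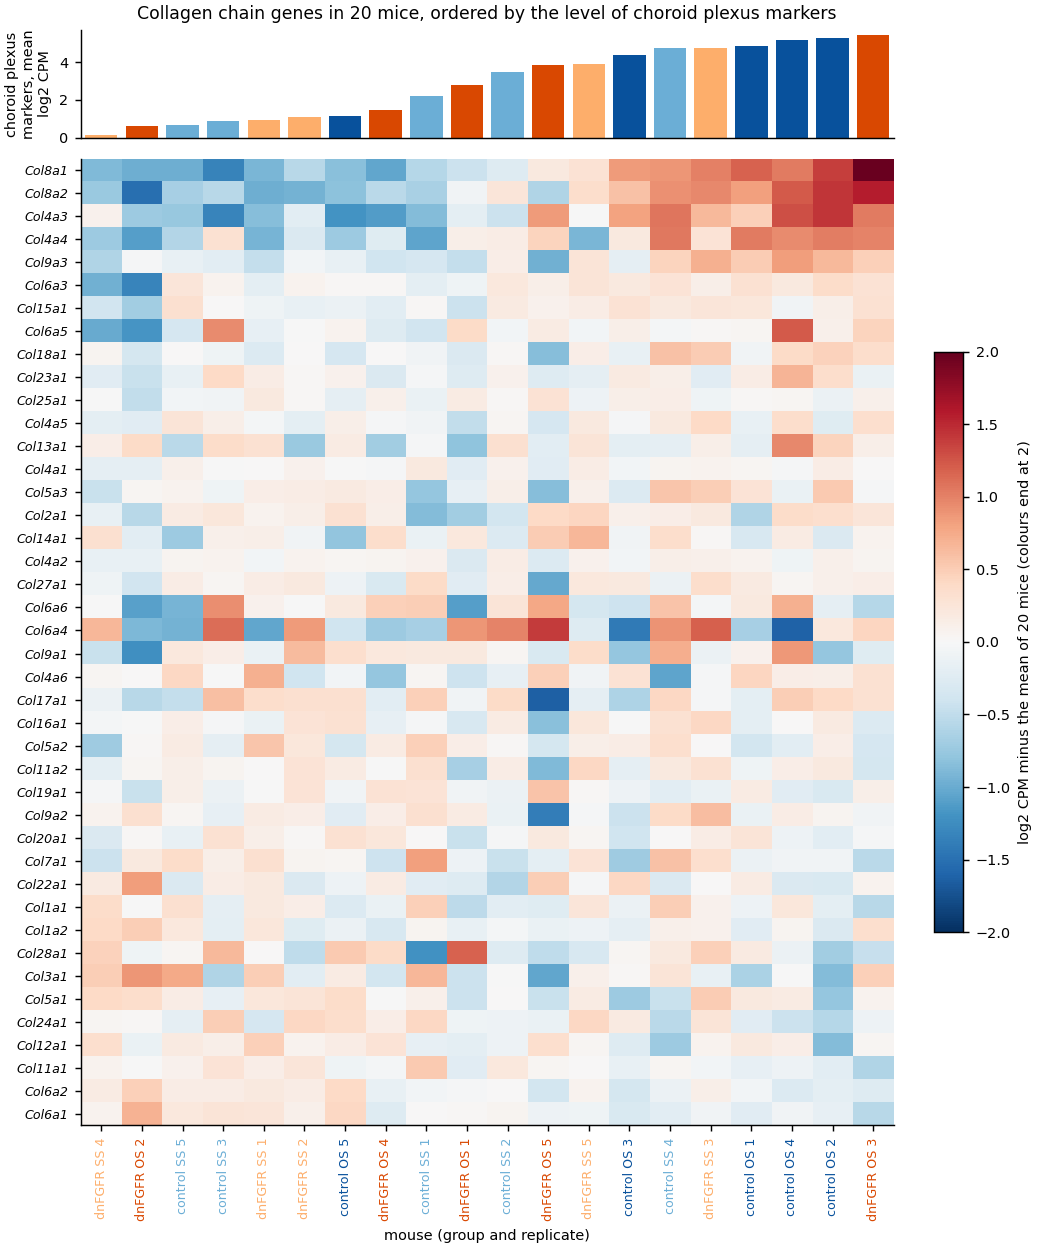
Log2 CPM minus the mean of the 20 mice for the 42 chains (rows, ordered by their correlation with the choroid plexus level) in 20 mice (columns, ordered by that level, which the bars show as mean log2 CPM). Col8a1, Col8a2, Col4a3 and Col4a4 change from blue to red from left to right, and Col6a1 and Col6a2 at the bottom from red to blue.

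Fibrillar and basement membrane chains were set against each other as the mean log2 CPM of the 6 fibrillar chains minus that of the 6 type IV chains in each mouse, a description without a test. The difference was 0.42 ± 0.24 (SD, n = 5) in control SS mice, -0.03 ± 0.35 in control OS mice, 0.50 ± 0.19 in dnFGFR SS mice and 0.25 ± 0.53 in dnFGFR OS mice. The groups overlapped, since the control SS mice ran from 0.19 to 0.71 and control OS mice from -0.36 to 0.57. OS minus SS was -0.45 in control and -0.25 in dnFGFR mice, against a pooled SD of 0.35 between mice. In control mice the value was -0.21 without Col4a3 and Col4a4, -0.056 when only chains with a mean of 100 or more counts were kept, and -0.089 when CPM were summed within each class before the log. The mean over fibrillar chains alone was 2.70 ± 0.21 in control SS and 2.51 ± 0.11 in control OS mice, and 2.76 ± 0.10 in dnFGFR SS and 2.51 ± 0.30 in dnFGFR OS mice. Over type IV chains it was 2.28 ± 0.18 and 2.53 ± 0.29 in the control groups and 2.25 ± 0.18 and 2.25 ± 0.35 in the dnFGFR groups.

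The first test asked whether OS housing of control mice went with other levels of collagen RNA than SS housing. Of the 42 chains 0 had an adjusted p below 0.1 in the edgeR fit, where 0.124% of 17004 genes did, and 5 chains had an unadjusted p below 0.05, where 7.2% of all genes did. DESeq2 called 1 chain, Col11a1, and 0.726% of all genes. Of the fitted log2 fold changes 27 were below 0 and 15 above, with 49.1% of all genes below 0, and the median was -0.05 against 0.0021 for all genes. The split was 22 below and 20 above when GC content and length were corrected for. Among the fibrillar chains 5 of 6 were below 0 (median -0.24), and among type IV chains 3 of 6 (median 0.10). Of the 8 fibroblast markers 4 also had an unadjusted p below 0.05, all below 0, and of the 7 choroid plexus markers 3 had one, all above 0. Of the 8 mural markers 3 had one, all below 0, and of the 7 endothelial markers 2 below 0 and 1 above. A fall was therefore not particular to the fibroblast list. The part of these markers in the fibrillar values was not tested.

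Col11a1 (chr3:114030479-114220756), a chain of the thin fibrils of cartilage that is also made in brain, was at 32.6, 26.2, 27.2, 23.3 and 24 CPM in control SS mice and 20.1, 19.6, 20.4, 21 and 21.2 in control OS mice. It was the 1 chain whose groups did not overlap, as for 1.61% of all genes. Its log2 fold change was -0.38 (SE 0.084, adjusted p = 0.164 by edgeR and 0.0103 by DESeq2, and 0.0103 to 0.967 over the alternatives). In dnFGFR mice it was at 24.8, 26.8, 21.8, 23.8 and 22.8 CPM under SS and 19.4, 22.6, 14.9, 22.1 and 23.2 under OS housing, and these overlapped. The 2 other chains with the smallest p were Col8a1 (log2 fold change 1.12, SE 0.40, adjusted p = 0.518) and Col6a4, a type VI chain (-1.14, SE 0.41, adjusted p = 0.518). With the choroid plexus level as a covariate, an alternative added after the data were seen, the value of Col8a1 was 0.28 (adjusted p = 0.919), that of Col11a1 -0.34 (adjusted p = 0.544) and that of Col6a4 -1.27 (adjusted p = 0.695). Likewise Col8a2 went from 0.82 to 0.01 Col4a3 from 0.98 to 0.06 and Col4a4 from 0.47 to -0.17.
Bases before the start of Col11a1 are shown because it was the chain with the smallest p in this comparison. They are at chr3:114030290-114030478 on the plus strand of GRCm38.p6 (RefSeq), with GGGCGG and CCAAT on either strand in capitals, 1 of each.
Col11a1: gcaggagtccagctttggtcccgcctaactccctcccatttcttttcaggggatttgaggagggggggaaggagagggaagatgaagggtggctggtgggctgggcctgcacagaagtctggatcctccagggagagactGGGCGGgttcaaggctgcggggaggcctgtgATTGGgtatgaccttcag

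In dnFGFR mice OS housing was compared with SS housing in the same way. None of the 42 chains was called by edgeR at an adjusted p below 0.1, where 0.0% of 16944 genes were, and DESeq2 also called 0 (0.0231% of all genes). An unadjusted p below 0.05 was reached by 5 chains, all below 0, where 6.72% of all genes reached it. The fitted values leaned below 0 in 33 of 42 chains (49.1% of all genes), with a median of -0.14 against 0.0037 for all genes, in 6 of 6 fibrillar chains (median -0.20) and in 4 of 6 type IV chains (median -0.12). Across the 42 chains the fold change went down with transcript GC content (r = -0.59, across genes that share libraries), and with a correction for GC content and length the median was -0.04 and 26 chains were below 0. Without dnFGFR OS replicate 5 the median was -0.12, and without replicate 2 it was -0.13. Over all fits that left out 1 mouse it ran from -0.20 to -0.09. The median was -0.18 with the choroid plexus level as a covariate (34 chains below 0) and -0.22 for mice of shared sacrifice dates. The number of chains with an unadjusted p below 0.05 was 11 without replicate 2, where 16.8% of all genes had one, 5 without replicate 5 (5.86% of genes) and 10 without both (12.1% of genes), with 0 chains called each time.

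Col1a1 (chr11:94936224-94953042) had the smallest p, at 8.16 ± 0.635 CPM under SS and 5.84 ± 0.958 under OS housing (SD, n = 5). It was the 1 chain without overlap between the groups, as for 1.42% of all genes, and its log2 fold change was -0.48 (SE 0.13, adjusted p = 0.726). It was -0.33 with the GC and length correction, and over the alternatives its adjusted p by edgeR and DESeq2 ran from 0.195 to 1.00. In control mice Col1a1 was at 8.2 ± 1.89 and 6.70 ± 0.943 CPM, and those groups overlapped. The next chains were the FACIT Col16a1 (log2 fold change -0.45, SE 0.15, adjusted p = 0.726), whose value was -0.25 with the correction, and Col11a2, a partner of Col11a1 (-0.51, SE 0.17, adjusted p = 0.726), with -0.29. Both were lowest in dnFGFR OS replicate 5, where Col11a2 was at 18.4 and Col16a1 at 11.1 CPM.

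**Figure D5:**
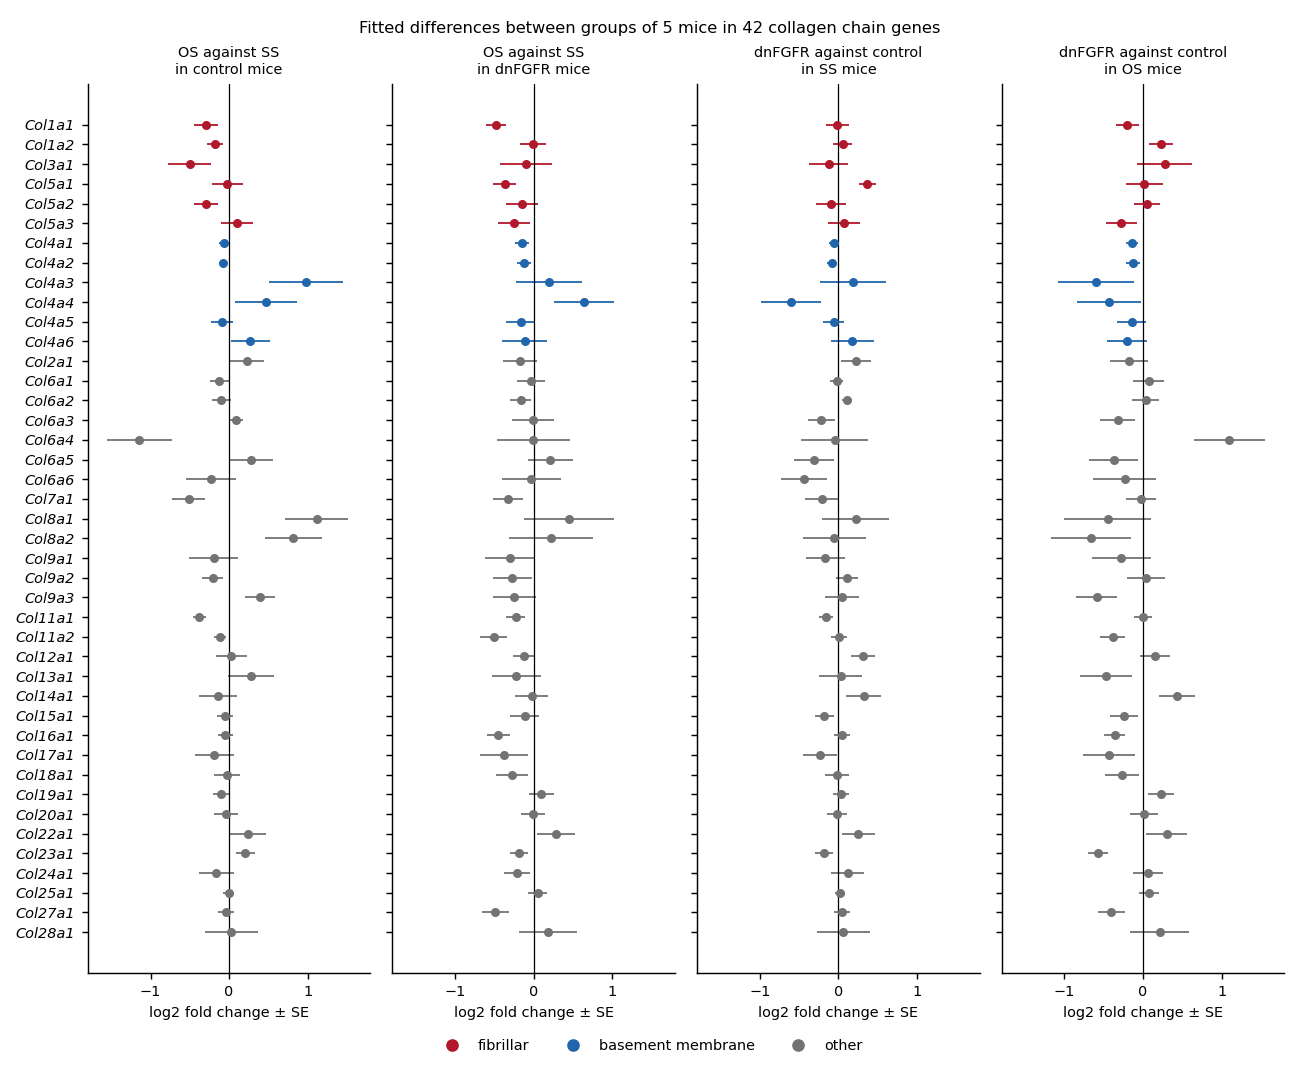
Fitted log2 fold change with its SE for each of the 42 chains in 4 comparisons of 5 against 5 mice, fibrillar chains in red, type IV chains in blue and others in grey. No chain reached an adjusted p below 0.1 by edgeR and the values of Col8a1 and Col6a4 for housing in control mice, 1.12 and -1.14, lie farthest from 0 there.

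Genotype was then compared under each housing. In SS mice 0 of 42 chains were called by edgeR (0.2% of 16992 genes), 1 had an unadjusted p below 0.05 (8.63% of genes) and DESeq2 called 1 (1.03% of genes), both times Col5a1. Values were below 0 in 21 chains and above in 21 (48.4% of genes below), with a median of -0.0015. Among type IV chains 4 of 6 were below 0 (median -0.06). Of the 7 endothelial markers 5 had an unadjusted p below 0.05, and of the 8 mural markers 3, all below 0. None of these markers had an adjusted p below 0.1, and no fibroblast marker had an unadjusted p below 0.05. The part of these markers in the collagen values was not tested. Col5a1 (chr2:27886381-28039510) was higher in each dnFGFR SS mouse than in each control SS mouse, at 17.6 ± 1.79 against 13.6 ± 2.13 CPM, and 1.57% of all genes were without overlap. Its log2 fold change was 0.37 (SE 0.11), with an adjusted p of 0.298 by edgeR and 0.0974 by DESeq2, and 0.0974 to 0.998 over the alternatives. In OS mice it was at 13.6 ± 3.25 in dnFGFR and 13.4 ± 4.67 CPM in control mice. The fitted value of Col12a1, a FACIT on the surface of type I fibrils, was 0.31 (SE 0.15, adjusted p = 0.584) and that of Col11a1 was -0.15 (SE 0.089, adjusted p = 0.665).
The bases before Col5a1 are shown because this chain separated the SS groups. They lie at chr2:27886175-27886380 on the plus strand of GRCm38.p6 (RefSeq) and hold 2 GC boxes, in capitals, on 1 strand or the other.
Col5a1: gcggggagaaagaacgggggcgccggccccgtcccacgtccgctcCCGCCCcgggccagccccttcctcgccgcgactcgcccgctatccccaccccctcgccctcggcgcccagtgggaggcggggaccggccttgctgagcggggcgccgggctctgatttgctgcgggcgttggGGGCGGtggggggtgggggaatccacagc

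In OS mice 0 of 42 chains were called by edgeR (0.0531% of 16941 genes), 6 had an unadjusted p below 0.05 (7.02% of genes) and DESeq2 called 1, Col23a1 (0.362% of genes). Values were below 0 in 26 chains (50% of genes), with a median of -0.16, and in 6 of 6 type IV chains (median -0.18) and 2 of 6 fibrillar chains (median 0.04). With the choroid plexus level as a covariate Col4a3 went from -0.60 to 0.08 and Col4a4 from -0.44 to 0.09, so 6 of 6 did not hold there. With the GC and length correction the median over the chains was -0.08. Col23a1 (chr11:51289679-51583925), a membrane-spanning collagen, was at 11.3, 13.1, 11.6, 16.3 and 10.9 CPM in control OS mice and 8.57, 7.51, 9.33, 8.34 and 8.56 in dnFGFR OS mice, without overlap, as for 1.56% of all genes. Its log2 fold change was -0.58 (SE 0.13, adjusted p = 0.255 by edgeR and 0.0129 by DESeq2), and the edgeR fit over all 4 groups gave an adjusted p of 0.0523, with 0.258% of all genes called in that fit. Over the alternatives the adjusted p ran from 0.0129 to 0.713. In SS mice it was at 10.9 ± 1.64 in control and 9.65 ± 1.19 CPM in dnFGFR mice. The fitted value of Col16a1 was -0.36 (SE 0.14, adjusted p = 0.655) and that of Col6a4 was 1.10 (SE 0.45, adjusted p = 0.665). With the choroid plexus covariate Col23a1 was at -0.48 (adjusted p = 0.314).

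The housing by genotype interaction asked whether the housing difference itself differed between the genotypes. It called 0 of 42 chains by edgeR (0.0% of 17445 genes) and 0 by DESeq2 (0.00451% of genes), and 3 chains had an unadjusted p below 0.05 (3.41% of genes). Of the fitted values 27 were below 0 (49.9% of genes). The 3 chains were Col23a1 (log2 difference -0.40, SE 0.17), Col16a1 (-0.40, SE 0.18) and Col27a1, a fibrillar chain outside types I, III and V (-0.45, SE 0.21), each with an adjusted p of 0.963. The comparisons share mice, since each group enters more than 1 of them, so their values are set side by side and not counted as separate evidence.

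The genes that make, fold, cut, bind and degrade collagen were followed as a list of 93, of which 89 or 90 were tested. Only 1 passed an adjusted p of 0.1 by edgeR, Fbln2, which encodes fibulin 2, a binding partner of elastic fibres and basement membranes. It passed for genotype in SS mice, where 0.2% of all 16992 genes did. Fbln2 was higher in dnFGFR than in control SS mice (log2 fold change 0.54, SE 0.11, adjusted p = 0.0755), at 7.6, 6.90, 7.39, 8.08 and 7.36 CPM against 5.65, 4.71, 5.37, 5.63 and 4.22. In OS mice it was at 8.45, 10.2, 8.27, 7.0 and 5.99 CPM in dnFGFR and 5.57, 6.22, 5.55, 6.03 and 7.28 in control mice (log2 fold change 0.38, SE 0.15, adjusted p = 0.655). The smallest p in the other comparisons belonged to Fmod, the fibril proteoglycan fibromodulin, for housing in control mice (-0.53, SE 0.13, adjusted p = 0.248), Agrn, the basement membrane proteoglycan agrin, for housing in dnFGFR mice (-0.26, SE 0.080, adjusted p = 0.726), Lama5, a laminin chain, for genotype in OS mice (-0.45, SE 0.14, adjusted p = 0.600) and Plod3, a collagen lysyl hydroxylase, for the interaction (-0.30, SE 0.12, adjusted p = 0.963). An unadjusted p below 0.05 was reached for housing in control mice by 7 of 89 listed genes above 0 and 9 below (7.2% of all genes), and for housing in dnFGFR mice by 2 and 3 of 90 (6.72%). For genotype it was reached by 6 and 9 of 90 in SS mice (8.63%) and by 5 and 6 of 89 in OS mice (7.02%), and for the interaction by 3 and 1 of 90 (3.41%). For housing in control mice those above 0 included 4 of the 19 modifying enzymes and chaperones, and those below 0 included 4 of the 16 basement membrane partners.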

How the data were processed

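Bulk RNA-seq was done on POA tissue from 20 male mice. Per the labels and the study's methods, HISAT2 placed the reads on GRCm38 and Rsubread counted RefSeq genes. The values deposited by the authors are raw counts per gene, not normalized. The options for strand and for reads on several genes are not given in the sources used here. A further 20 columns of counts match none of the samples and were not used. 1 further gene of the symbol pattern is not reported here. The members, lists and tests were chosen with earlier results of these data known.

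Counts were tested with edgeR 4.0.16 (quasi-likelihood, TMM, filterByExpr) in R 4.3.3, each comparison on its own 10 mice and the interaction on 20, with Benjamini-Hochberg adjustment over all genes tested and a threshold of 0.1, as in the study. The study's text gives 4 to 5 mice per group after outlier detection without naming the mice left out, and all 20 mice were kept here. The fits across genes were first tested on simulated data. DESeq2 1.42.0, RLE size factors, no filter, a threshold of 0.05, all 4 groups in 1 fit, the replicate number as a block, GC and length offsets, mice of shared dates (2 SS and 5 OS control, 2 SS and 4 OS dnFGFR mice, date as a block) and each mouse left out were the alternatives. Levels are CPM with TMM factors (a prior count of 2 on the log2 scale), and GC content and exon length come from GENCODE M21 on the same build, for 97.9% of genes and 100% of members. Correlations were tested with 100000 permutations in numpy 2.4.6. Values are given in every mouse for fibrillar and type IV chains, and fold changes for the 3 chains with the smallest p in each comparison. Col8a1, Col8a2, Col6a1, Col11a1 and Col23a1 were given mouse by mouse after their values had been seen. No 2 mice of a group held counts within sampling noise of each other (chi-square per degree of freedom of 9.51 or more). The labels do not say whether mice shared a litter, so p-values measure the spread between these mice. 12 members shared exon bases with another gene of GENCODE, 4 of them with a gene in the table. Totals of 32353578 to 39871353 counts per mouse limit the precision of the lowest chains.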

Additional observations from a re-analysis of the deposited data

Results flagged for a closer look

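5 of 104 sets of 5 values held a mouse far from the other 4 of its group, where chance gives about 1 in 20. Col8a1 was at 14.3 CPM in dnFGFR OS replicate 3, with the others between 1.77 and 4.16, and Col8a2 was at 11.3 CPM in the same mouse, with the others between 1.34 and 3.62. That mouse also had the highest choroid plexus marker level. Col4a3 was at 2.18 CPM in control SS replicate 4, with the others between 0.417 and 0.771, and that mouse had the highest choroid plexus level of its group. Col6a1 was at 168.5 CPM in control OS replicate 5, with the others between 102.8 and 120.7, and that mouse had the lowest choroid plexus level of its group. The mean log2 CPM of the type IV chains was 2.56 in dnFGFR SS replicate 3, with the others between 2.14 and 2.24, and that mouse too had the highest choroid plexus level of its group.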

How the results depend on the processing

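The count of 0 chains called by edgeR was kept under 18 of 19 alternatives for housing in control mice, 20 of 20 in dnFGFR mice, 17 of 18 and 17 of 19 for genotype in SS and OS mice, and 28 of 28 for the interaction. The exceptions were DESeq2, which called 1 chain for housing in control mice (Col11a1, with 0.726% of all genes called), 1 for genotype in SS mice (Col5a1, 1.03%) and 1 for genotype in OS mice (Col23a1, 0.362%), and the fit of all 4 groups, which called 1 for genotype in OS mice (Col23a1, 0.258%). The cause was not tested. Leaving out each mouse in turn left 0 calls in each comparison, while the number of chains with an unadjusted p below 0.05 ran from 3 to 10 and 4 to 11 for housing in control and dnFGFR mice, 1 to 4 and 2 to 9 for genotype in SS and OS mice, and 0 to 5 for the interaction. The share of all genes with such a p ran from 5.71% to 10%, 3.97% to 16.8%, 7.01% to 10.2%, 4.62% to 13.5% and 2.43% to 11.3% in the same fits. The replicate numbers did not pair the mice, since correlations of same-numbered deviations ran from -0.23 to 0.26, and with the replicate number as a block 0 chains were called in each comparison. The 3 chains with the smallest p in each comparison kept their sign there under every alternative run. Other chains did not, since with the choroid plexus covariate Col8a1 went from 0.45 to -0.11 and Col8a2 from 0.21 to -0.19 for housing in dnFGFR mice. The class difference for housing in control mice was -0.089 with summed CPM and -0.056 with chains of 100 or more counts, which leaves out Col3a1, Col4a3, Col4a4 and Col4a6, and it ran from -0.60 without control OS replicate 5 to -0.36 without control OS replicate 2. In dnFGFR mice it ran from -0.43 without dnFGFR OS replicate 2 to -0.10 without dnFGFR OS replicate 5. For mice of shared sacrifice dates it was -0.27 in control and -0.44 in dnFGFR mice. Depth limits the chains near 1 CPM, Col4a3 and Col4a4 among them.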
